A study of Mus musculus with 2 samples.

Results

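Fibroblasts with transcripts of Clec3b, Pi16 or Cd34 were described in subcutaneous ovarian tumors of WT and TSK mice, in 2 libraries of single cells whose transcript ends were sequenced (10x Genomics 3′ chemistry). A cell was taken into this group when its barcode held at least 2 UMIs of Clec3b, Pi16 and Cd34 together. A UMI is 1 counted RNA molecule. Before that cut, a barcode had to pass a fibroblast gate, which asked for at least 3 UMIs of Dcn, Lum and Pdgfra, at least 5 of Col1a1, Col1a2 and Col3a1, fewer than 3 of the endothelial genes Pecam1, Cdh5 and Cldn5, and 0 of the leukocyte genes Ptprc and Csf1r. Of 4403 cells that passed the filter, 483 passed the gate, and 223 of these were above the cut, 67 from WT and 156 from TSK tumors. The other 260 fibroblasts, 24 in WT and 236 in TSK, had 0 or 1 UMI of the 3 genes and are called fibroblasts below the cut. The members were chosen by the measured counts, so the levels of the 14 genes of the gate and the cut are descriptions of the choice.

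Both libraries came from female C57BL/6 mice of 6 to 8 weeks, injected with the syngeneic ovarian cancer line SO. The WT library pooled the subcutaneous tumors of 4 WT mice, and the TSK library those of 4 TSK (tight skin) mice, which carry on 1 of their alleles of Fbn1 an intragenic duplication that yields an oversized fibrillin-1. The tumors were digested and freed of dead cells and erythrocytes without a sort for any cell type, and the question put to the data was how fibroblast subtypes and immune subsets differ between the genotypes. With 1 library per genotype there was no replicate of either, so no difference between the libraries was tested. The intervals given are 95% intervals that cover counting error only, and genotype, pool and library cannot be told apart. The intervals are exact (Clopper-Pearson for a share, Poisson for a level, conditional binomial for a ratio of levels). Only that of the ratio of shares is approximate.

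In mouse connective tissues, Pi16 and Cd34 are known to mark fibroblasts of the fascia and of the adventitia, the sheath around larger vessels, which also express Dpt, Ly6c1 and Dpp4 and are regarded as a reservoir for more specialised fibroblasts. Clec3b encodes tetranectin, a secreted lectin, Pi16 a peptidase inhibitor anchored in the membrane, and Cd34 a sialomucin that endothelial and blood progenitor cells carry too. Fibroblasts of tumors are often divided into contractile, matrix-depositing cells with Acta2 and Tagln and inflammatory cells with Il6 and chemokines. Fibrillin-1, the product of Fbn1, assembles into microfibrils, which scaffold elastic fibers and hold latent TGF-beta.

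The WT library held 21225411 UMIs in 2332 barcodes and the TSK library 48296765 in 4436. After the filter the cells of the libraries had similar depth, with a median of 7658.5 UMIs in WT and 7302 in TSK. The fibroblasts differed in depth, since the members had a median of 21016 UMIs in WT and 11341.5 in TSK, and the fibroblasts below the cut 15968.5 and 32958. The barcodes found in both libraries, 263 in all, were left out. They would have added 4 fibroblasts to WT and 1 to TSK, among them 1 WT member. No doublet caller was run, and doublets were addressed by leaving out barcodes by depth or by markers of other cell types.

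T cell markers were almost absent from the members, while macrophage and cancer cell markers were found in a part of them. The 7 T and NK cell markers summed to 0.660 UMIs per 1000000 UMIs (CPM) over the WT members and 0.876 CPM over the TSK members, with 6 and 5 of the markers at 0. The 9 macrophage markers summed to 40.2 CPM in WT and 245 CPM in TSK, and a UMI of at least 1 of them reached 34.3% of WT members and 31.4% of TSK members. The 6 endothelial markers summed to 124 and 106 CPM, and the 8 pericyte and smooth muscle markers to 25.7 and 57.8 CPM. The lists for B cells, neutrophils, skeletal muscle, keratinocytes, mesothelium, adipocytes, mast cells, red blood cells and tendon cells each summed to at most 18.8 CPM in either library. The 6 cancer cell markers summed to 739 CPM in WT and 792 CPM in TSK.

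Lgals7 and Cdkn2a, the epithelial lectin galectin-7 and a cell cycle inhibitor, divided the fibroblast gate. At least 5 UMIs of the pair were found in 9 of the 67 WT members (13.4%, interval 6.33 to 24%) and in 24 of the 156 TSK members (15.4%, 10.1 to 22.0%). Below the cut they were found in 11 of 24 WT fibroblasts (45.8%, 25.6 to 67.2%) and in 191 of 236 TSK fibroblasts (80.9%, 75.3 to 85.7%). These barcodes were deep and poor in fibroblast transcripts. The members among them had medians of 39748 UMIs in WT and 34832.5 in TSK, and 2.26 and 5.75 UMIs of Dcn, Lum and Pdgfra per 10000, where the other members had 43.1 and 46.0. Below the cut such barcodes had 3.72 and 1.96 UMIs of Dcn, Lum and Pdgfra per 10000, at medians of 39429 UMIs in WT and 38099 in TSK. Results below are given, as stated with each, for all members, or for the 58 WT and 132 TSK members without these barcodes, called the cleaned set, with the fibroblasts below the cut cleaned in the same way to 13 in WT and 45 in TSK. The cleaned members still held cancer cell markers at 1.75 CPM in WT and 46.4 CPM in TSK, with a UMI in 3.45% and 28.8% of them, and macrophage markers at 28.9 and 75.4 CPM. The part of these UMIs in the ratios of TSK over WT was not tested. What part doublets or free RNA have in these barcodes was not tested.

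**Figure D1:**
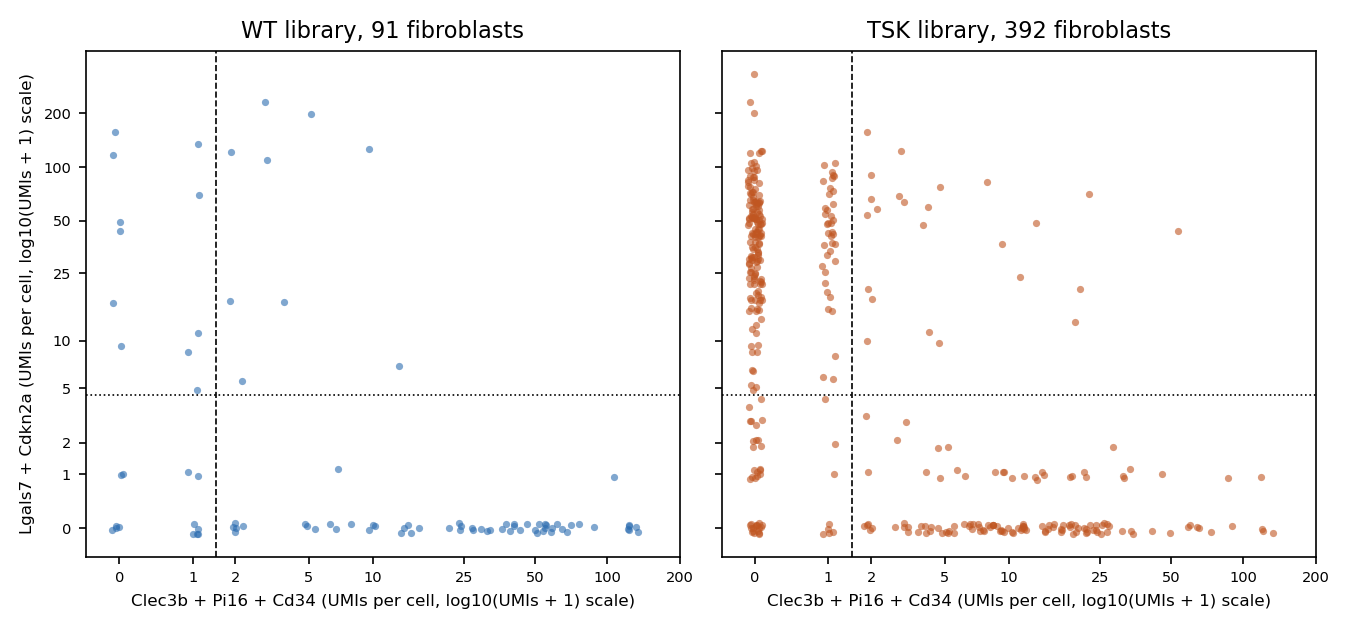
Each point is 1 fibroblast of the gate in the WT (91) or TSK (392) library, placed by its UMIs of Clec3b, Pi16 and Cd34 (x) and of Lgals7 and Cdkn2a (y), both on a log10(UMIs + 1) scale with a small fixed-seed shift of each point. The dashed line is the cut at 2 UMIs and the dotted line the limit of 5 UMIs; most TSK points left of the cut lie above the dotted line, while most points right of the cut in both libraries lie below it.

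The 3 genes of the cut were mostly found together. Of the 67 WT members, 45 (67.2%) had UMIs of all 3 genes, 12 had 2 of them and 10 had 1. Of the 156 TSK members, 86 (55.1%) had all 3, 45 had 2 and 25 had 1. Cd34 was found in 62 WT and 133 TSK members, Pi16 in 56 and 136, and Clec3b in 51 and 104. A member with Clec3b alone was rare, with 0 in WT and 1 in TSK, whereas Pi16 was the sole gene in 4 WT and 15 TSK members and Cd34 in 6 and 9.

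The depth of a cell bears on such shares, and cells that lack these genes gave a background. In T cells outside the gate (at least 2 UMIs of Cd3d, Cd3e and Cd3g), with a median depth of 6943 UMIs in WT and 3228 in TSK, Pi16 was found in 1.54% of 455 cells in WT and 1.85% of 271 in TSK. After thinning to 3000 UMIs per cell, which left out 1 WT and 9 TSK members and 12 and 117 T cells, Pi16 was found in 62.1% of WT and 66.0% of TSK members and in 0.452% and 2.60% of T cells. Clec3b was found in 56.1% of WT and 44.9% of TSK members so thinned, against 0.452% and 0.649% of T cells. The members were chosen on these genes and the T cells were not, so these gaps follow from the rule. Per cell, Pi16 ranged from 0 to 94.9 UMIs per 10000 in WT, with a median of 5.07 and quartiles of 0.864 and 18.3, and from 0 to 86.0 in TSK, with a median of 5.85 and quartiles of 1.32 and 13.7. The members thus ran from cells at the background to cells with many UMIs, and the ranges of the libraries overlapped.

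Some fibroblasts of each library lay close to the cut. In WT 12 fibroblasts (13.2%) had 1 UMI of the 3 genes and 8 (8.79%) had 2, while 48 had 10 or more. In TSK 47 (11.99%) had 1 UMI, 15 (3.83%) had 2 and 82 had 10 or more. Dcn, a proteoglycan that most fibroblasts make and a gene of the gate, had a median of 3.8 UMIs per 10000 just outside the cut and 6.77 just inside it in WT, and 1.33 and 2.64 in TSK. In fibroblasts with 10 or more UMIs of the 3 genes it was 33.9 and 41.8. Lgals7 and Cdkn2a reached 5 UMIs in 5 of 12 WT and 39 of 47 TSK fibroblasts just outside, in 3 of 8 and 8 of 15 just inside, and in 2 of 48 and 6 of 82 of those with 10 or more.

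Over all members, Pi16 (chr17:29317680-29330593, plus strand, GRCm38, all exons and introns of the gene included) stood at 1006 CPM in WT and 828 CPM in TSK. Cd34 (chr1:194938819-194961279, plus strand) stood at 292 CPM in WT and 245 CPM in TSK. Clec3b (chr9:123150946-123157432, plus strand) stood at 367 CPM in WT and 172 CPM in TSK. In the cleaned set Pi16 was 1325 and 1288 CPM and Cd34 362 and 366 CPM, so that these 2 genes lay close together in the libraries. Clec3b remained lower in TSK there, at 257 CPM against 482 CPM in WT.

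Dpt, which encodes dermatopontin, a small matrix protein, and was not part of the rule, had 1195 CPM in the WT members and 106 CPM below the cut. In TSK it had 803 CPM in the members and 7.47 CPM below the cut. Without the Lgals7 and Cdkn2a barcodes it was 1549 against 389 CPM in WT and 1215 against 91.9 CPM in TSK. Dpt was higher above the cut in both libraries with and without these barcodes.

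The members were 4.65% of the WT cells (3.62 to 5.86%) and 5.27% of the TSK cells (4.49 to 6.14%), and these intervals overlapped. As a share of the fibroblasts of the gate they were 73.6% in WT (67 of 91, 63.4 to 82.3%) and 39.8% in TSK (156 of 392, 34.9 to 44.8%). The log2 ratio of these shares, TSK over WT, was -0.89 (approximate interval -1.14 to -0.64). Without the Lgals7 and Cdkn2a barcodes the shares were 81.7% (58 of 71, 70.7 to 89.9%) and 74.6% (132 of 177, 67.5 to 80.8%), and the log2 ratio was -0.13. The intervals of the shares overlapped there. The direction turned under other limits: with at most 10000 UMIs and genes the shares were 58.8% in WT (10 of 17) and 72.2% in TSK (65 of 90), a log2 ratio of 0.30, and without cells with markers of other types they were 81.4% and 84.7%, a log2 ratio of 0.06.

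Depth moved with the share in TSK. Of the TSK fibroblasts, 81.0% were above the cut among those under 5000 UMIs, 69.6% from 5000 to 10000, 62.4% from 10000 to 20000, 13.8% from 20000 to 40000 and 10.1% of those deeper. In WT the shares over the same depth groups were 12.5% (1 of 8), 100% (9 of 9), 72% (18 of 25), 87.2% (34 of 39) and 50% (5 of 10), so that few of the shallowest fibroblasts were members in WT and most were in TSK. The TSK fibroblasts below the cut that were rich in Lgals7 and Cdkn2a had a median of 38099 UMIs and the others 11393, and the part of these barcodes in the difference between the genotypes was not tested apart from their removal.

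**Figure D2:**
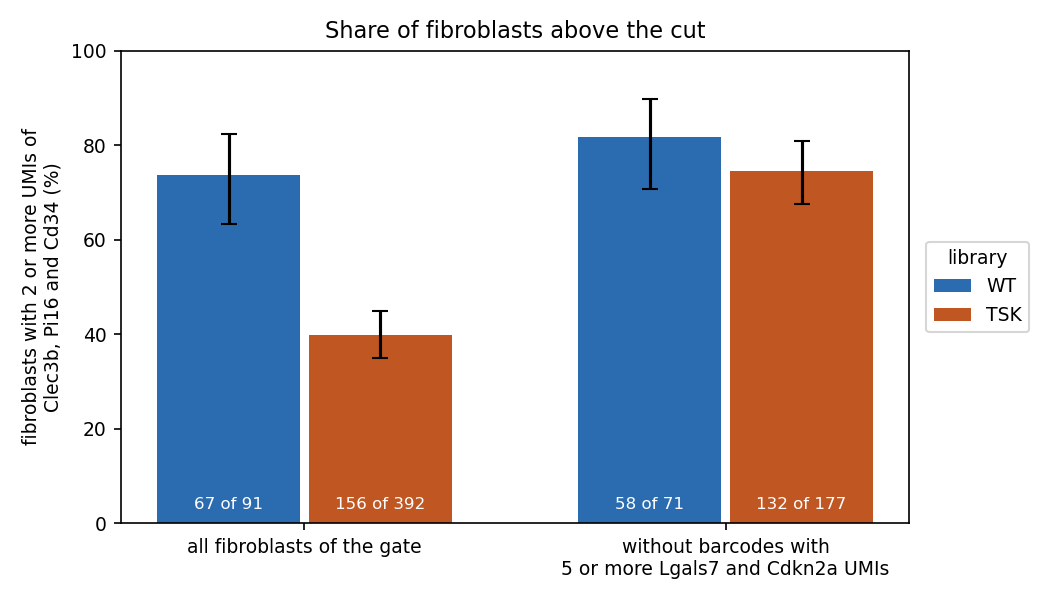
Bars give the percent of gate fibroblasts above the cut in WT (blue) and TSK (orange), with exact 95% binomial intervals that cover counting error only; the counts stand in the bars. The shares of 73.6% and 39.8% over all fibroblasts of the gate became 81.7% and 74.6% once barcodes with 5 or more Lgals7 and Cdkn2a UMIs were left out.

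The members were then compared with the fibroblasts below the cut within each library, gene by gene, on CPM of the summed UMIs. A gene counted as higher or lower when it was past 2-fold in the same direction in both libraries. Of 9735 genes measured, 809 were higher in the members (8.31%) and 500 were lower (5.14%). With the Lgals7 and Cdkn2a barcodes left out, 267 of 6649 were higher (4.02%) and 267 lower (4.02%). Of the 809 higher genes 228 were among the higher genes of the cleaned set, which is 28.2% of the former and 85.4% of the latter. Of the 500 lower genes only 37 were among the cleaned set's, 7.40% of the former and 13.9% of the latter, so the genes lower in the members were for the most part others once the Lgals7 and Cdkn2a barcodes were gone. Scaling by the median gene gave 1017 higher and 251 lower (80.2% higher, against 61.8%), and in the cleaned set 353 and 164 (68.3%, against 50%). With sums of 0 UMIs set to 3 UMIs, a floor chosen for such sums, 798 and 500 genes were past 2-fold, and 220 and 272 in the cleaned set.

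Genes of universal and adventitial fibroblasts were higher in the members. Of 27 genes of this list measured, 23 were higher in both libraries and 0 lower, with a median log2 ratio of 3.01 in WT and 4.54 in TSK, where all genes had -0.25 and -0.19. In the cleaned set 18 of 27 were higher and 0 lower (medians 1.89 and 2.85), or 16 with sums of 0 set to 3 UMIs (1.58 and 2.85). The list was chosen with earlier results of these cells known, and genes of this kind are known to go with the genes of the cut.

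Among them, Ly6c1, a surface protein also found on endothelium, had 513 CPM in WT members and 54.7 CPM below the cut in the cleaned set, and 623 and 27.7 CPM in TSK. Cd55, which protects cells from complement, had 138 and 13.7 CPM in WT and 193 and 6.94 CPM in TSK. Scara5, a ferritin receptor, had 132 CPM in WT members and 0 UMIs below the cut, and 115 and 6.94 CPM in TSK. These genes were higher above the cut in both libraries. Dpp4, a surface peptidase, had 75.2 and 54.7 CPM in WT, with a log2 ratio of 0.46 (-0.58 to 1.72), and 117 and 8.67 CPM in TSK, with 3.76 (2.51 to 5.40). It was past 2-fold in TSK alone there, and the difference between the libraries was not tested.

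Complement genes were nearly all higher above the cut, among them Cd55, which stands in the universal and adventitial list too. Of 11 measured, 10 were higher and 0 lower in both sets, with medians of 2.86 in WT and 4.54 in TSK over all and 1.80 and 1.84 in the cleaned set. C3, the central component, had 4248 CPM in WT members and 198 CPM below the cut in the cleaned set, and 2237 and 307 CPM in TSK. Its log2 ratio was 4.42 (3.90 to 5.0) in WT and 2.87 (2.65 to 3.09) in TSK. Cfb, which forms the convertase with C3, had 347 and 20.5 CPM in WT and 412 and 101 CPM in TSK.

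Inflammatory fibroblast genes were often higher above the cut as well, with 18 of 25 higher and 1 lower (medians 2.38 and 3.10). Without the Lgals7 and Cdkn2a barcodes 10 of 22 were higher and 2 lower (medians 1.92 and 0.85), or 8 with sums of 0 set to 3 UMIs (1.31 and 0.84). Cxcl12, a chemokine for lymphocytes and progenitors, had 644 and 157 CPM in WT and 378 and 140 CPM in TSK in that set. Il6 had 86.6 and 34.2 CPM in WT, the latter from 5 UMIs, and 381 and 107 CPM in TSK. Cxcl1, a neutrophil chemokine, had 331 CPM in the WT members and 0 UMIs below the cut, and 1071 and 500 CPM in TSK.

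For genes of activated and contractile fibroblasts, the counts past 2-fold turned once the Lgals7 and Cdkn2a barcodes were left out. The median of the list changed sign in TSK alone, since in WT it was below 0 in both sets. Over all fibroblasts, 8 of 22 were higher in the members and 0 lower (medians -0.06 in WT and 0.85 in TSK). With the Lgals7 and Cdkn2a barcodes left out 0 were higher and 9 lower (medians -1.0 and -0.95). Tagln, a contractile protein, had 15.7 CPM in the WT members and 355 CPM below the cut in that set, and 134 and 890 CPM in TSK. Lrrc15, a surface protein of activated fibroblasts, had 32.4 and 150 CPM in WT and 41.3 and 279 CPM in TSK. Inhba, the activin A subunit, had 50.7 and 260 CPM in WT and 55.8 and 359 CPM in TSK. Postn, a matricellular protein, differed little in WT, with 1597 and 1640 CPM. In TSK it was lower in the members, with 1591 and 2291 CPM, though short of 2-fold. The pericyte and smooth muscle markers below the cut summed to 246 CPM in WT and 253 CPM in TSK in the cleaned set, against 30.6 and 87.7 CPM in the members, and their part in these genes was not tested.

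**Figure D3:**
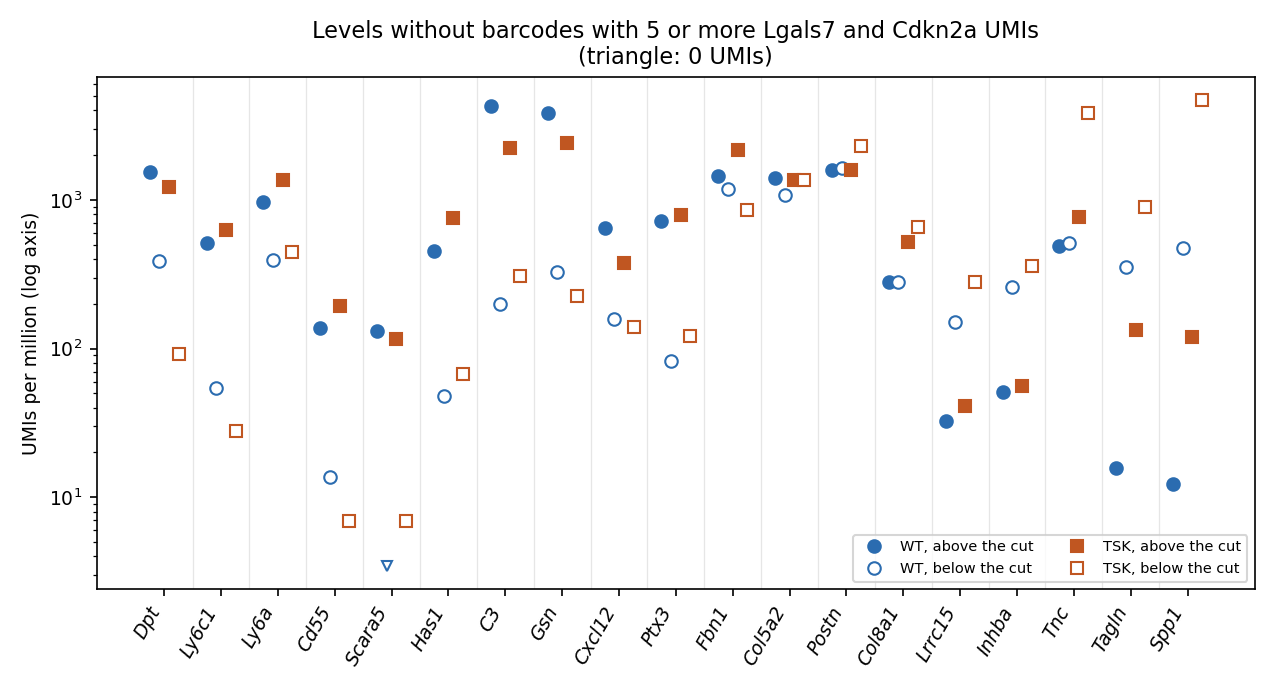
Levels of named genes in the cleaned set on a log axis, in CPM of summed UMIs, for WT (circles) and TSK (squares), members above the cut (filled) and fibroblasts below it (open); the triangle marks 0 UMIs. Dpt, Ly6c1, Cd55 and C3 lie higher in the members of both libraries, Lrrc15, Inhba, Tagln and Spp1 lower, and Postn lies close together in WT.

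By the rule for naming genes, the 15 genes with the highest ratios in the library where the ratio was smaller were Prg4, Chrdl1, Cxcl13, Prss23, Serpina3n, Cfb, Pamr1, Lrrn4cl, Rasgef1c, Thbs4, Scara5, Klhl13, Entpd2, C3 and Cd55. The cleaned set brought in Smpd3, Csmd1, Gsn, Has1, Itih5, Adora2b, Lmcd1 and Tac1 by the same rule. Prg4, the lubricant proteoglycan of joint linings, had 179 CPM in the WT members and 0 UMIs below the cut in the cleaned set, and 467 and 41.6 CPM in TSK. Has1, a hyaluronan synthase, had 451 and 47.8 CPM in WT and 753 and 67.6 CPM in TSK. Gsn, which severs actin filaments, had 3836 and 328 CPM in WT and 2417 and 226 CPM in TSK. Has1 and Gsn were higher in the members of both libraries in either set, by log2 ratios of at least 3.24 in WT and 3.42 in TSK.

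The 15 genes lowest in the members over all fibroblasts were Col26a1, Rtl4, Ptcra, Ubash3a, Olfr1369-ps1, C77080, Hist1h2ae, Dtl, Nr6a1os, Scube2, Akr1cl, Apold1, Atad5, Dlx2 and Gm34921. In the cleaned set none of these held that place, and Col26a1, Rtl4 and Ptcra had 0 UMIs in all WT fibroblasts. The lowest in the cleaned set were Spp1, Ank, Pdgfa, Sema7a, Inhba, Lrrc15, Tagln, Thsd4, Gng11, Igf2bp2, Gbp4, Kcnq3, Adgrf5, Alms1 and Ttll12. Spp1, the secreted phosphoprotein osteopontin, had 12.2 CPM in WT members and 471 CPM below the cut there, and 119 and 4678 CPM in TSK. Ank, a pyrophosphate transporter, had 24.5 and 280 CPM in WT and 29.7 and 543 CPM in TSK. Over all fibroblasts Spp1 had 3375 CPM in the TSK members and 3330 CPM below the cut, so its position depended on the Lgals7 and Cdkn2a barcodes.

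Matrix genes of most kinds were higher in the members over all fibroblasts, and fewer were in the cleaned set. Of all genes, 8.31% were higher over all fibroblasts and 4.02% in the cleaned set. Matrix collagens went from 10 of 13 higher (medians 1.54 and 2.44) to 1 of 13 (0.05 and -0.16), the one being Col14a1. Microfibril and elastic fiber genes went from 14 of 17 higher (1.89 and 3.30) to 3 of 17 (1.18 and 1.00), which were Fbln1, Efemp1 and Emilin2. Small proteoglycans outside the rule went from 5 of 5 to 3 of 5, with medians of 2.60 in WT and 1.88 in TSK. Collagen crosslinking and folding genes went from 5 of 20 higher to 1 higher and 2 lower, with Pcolce2, an enhancer of procollagen processing, the one that was higher. Basement membrane genes went from 5 of 14 higher to 1 higher and 1 lower of 13, which were Lamb2 and Col18a1. Matrix proteases and their inhibitors went from 17 of 25 higher to 5 higher and 1 lower, among the higher ones Mmp2 and Adamts5. The lists overlap, and Col14a1, Efemp1 and Pcolce2 stand in the universal and adventitial list too, so the counts are not independent.

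Signalling genes are given by their counts, beside 4.02% of all genes past 2-fold each way in the cleaned set. TGF-beta and BMP pathway genes had 8 of 18 higher, and 2 higher and 1 lower in the cleaned set (medians 0.29 and 0.10). Growth factors and binding proteins had 11 of 21 higher and 1 lower, and 8 higher and 2 lower in the cleaned set (medians 1.06 and 0.61). Among these Igf1 had 400 and 137 CPM in WT and 331 and 95.4 CPM in TSK. Wnt pathway genes had 6 of 11 higher, and 5 of 10 in the cleaned set (medians 1.30 and 0.80), or 4 with sums of 0 set to 3 UMIs (1.05 and 0.80). Sfrp4, a secreted Wnt antagonist, had 234 and 95.7 CPM in WT and 182 and 1.73 CPM in TSK, the last from 1 UMI. Adipogenic and lipid genes had 4 of 13 higher and, in the cleaned set, 4 of 10 higher and 1 lower. Of these Apod, a lipid carrier, had 658 and 109 CPM in WT and 982 and 72.9 CPM in TSK. Early response and heat shock genes had 3 of 20 higher in both sets, and 1 lower in the cleaned set.

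The lists with cell cycle, metabolic and immune functions are given beside the shares of all genes. These were 8.31% higher and 5.14% lower over all fibroblasts, and 4.02% each way in the cleaned set. Cell cycle genes had 0 of 15 higher and 9 lower over all fibroblasts. Of the 5 still measured in the cleaned set, 0 were past 2-fold in the same direction in both libraries. Their medians there lay on opposite sides of 0, at 0.62 in WT and -1.12 in TSK. Glycolysis and hypoxia genes had 0 of 19 higher and 1 lower, and 1 of 16 each way in the cleaned set. Interferon-stimulated genes had 2 of 17 higher and 1 lower, and 0 of 14 either way in the cleaned set. Antigen presentation genes had 5 of 7 higher, and 3 in the cleaned set (medians 1.23 and 0.40), or 2 with sums of 0 set to 3 UMIs (0.81 and 0.40).

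Across the fibroblasts of a library, the genes whose thinned counts ran most like the summed Clec3b, Pi16 and Cd34 counts were taken by Pearson correlation, as a description across cells of 1 library that share their capture and free RNA. In WT (86 cells of at least 3000 UMIs) these were Gsn (r = 0.551), Cavin1 (0.439), C3 (0.429), Adamts5 (0.423) and Ly6a (0.421). In TSK (382 cells) they were C3 (0.616), Fstl1 (0.610), Htra3 (0.593), Ly6a (0.586) and Dpt (0.574). Without the Lgals7 and Cdkn2a barcodes they were Gsn, Cavin1, Cd248, Ly6a and C3 in WT (66 cells, r from 0.340 to 0.491) and C3, Htra3, Ly6c1, Fstl1 and Ly6a in TSK (167 cells, 0.428 to 0.493). C3 and Ly6a stood in all 4 of these lists.

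The members of the TSK library were next set against those of the WT library. Of 7441 genes with at least 50 UMIs in the members, 862 were past 2-fold higher in TSK (11.6%) and 239 lower (3.21%). With the Lgals7 and Cdkn2a barcodes left out 669 of 5565 were higher (12%) and 162 lower (2.91%). The median gene lay 0.26 higher in TSK on the log2 scale, and 0.32 in the cleaned set. It also lay 0.20 higher in T cells and 0.23 higher in Lgals7 and Cdkn2a barcodes outside the gate, so the shift was not confined to the members. Relative to the median gene, 424 genes were higher and 453 lower (48.4% of them higher, against 78.3%), and in the cleaned set 253 and 345 (42.3%, against 80.5%). The excess of higher genes thus turned with the scaling, and each log2 ratio below has to be read against these medians. Of the 862 higher genes 332 were among those of the cleaned set (38.5% of the former and 49.6% of the latter), and of the 239 lower genes 118 (49.4% and 72.8%).

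Fbn1 (chr2:125300594-125507993, minus strand), the gene that carries the duplication, had 1201 CPM in the WT members (1146 to 1257) and 1405 CPM in the TSK members (1357 to 1454), or 0.23 (0.14 to 0.31) on the log2 scale. That ratio lay at the median gene, from which it differed by -0.03, and with the cut at 1 UMI it turned to -0.44. In the cleaned set Fbn1 had 1435 CPM in WT and 2147 CPM in TSK, or 0.58 (0.49 to 0.67) on the log2 scale, or 0.27 above the median gene. Per cell its median there was 12.1 UMIs per 10000 in WT members and 19.0 in TSK members. Below the cut the order was the reverse, with 12.7 in 13 WT fibroblasts and 8.03 in 45 TSK fibroblasts. Counts of transcript ends do not tell the duplicated allele from the other one. In T cells, which do not build microfibrils, Fbn1 UMIs stood at 38.0 CPM in WT and 44.7 CPM in TSK.

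Of the 17 microfibril and elastic fiber genes, Fbn1 included, 3 were past 2-fold higher in the TSK members of the cleaned set and 0 were lower (2 and 0 over all members), with a median of 0.35, close to that of all genes. Mfap5 (chr6:122505845-122529290, plus strand), a glycoprotein of the microfibril, had 610 CPM in WT and 1371 CPM in TSK, or 1.17 (1.04 to 1.30) on the log2 scale, and was found in 52 of 58 and 119 of 132 members. Per cell its median was 4.46 UMIs per 10000 in WT (quartiles 1.70 and 7.96) and 12.4 in TSK (4.83 and 19.8). Eln, which encodes tropoelastin, had 213 and 603 CPM, or 1.5 (1.29 to 1.71) on the log2 scale, and Ltbp4, which binds latent TGF-beta, 47.2 and 122 CPM, or 1.38 (0.93 to 1.85) on the log2 scale. Fbln2, a microfibril-associated fibulin, had 884 and 1639 CPM, or 0.89 (0.78 to 1.00) on the log2 scale. Over all members the same genes gave 0.86, 1.19, 1.05 and 0.38, in that order. With the cut at 1 UMI the ratio of Mfap5 was 0.33. In T cells Mfap5 had 21.7 and 44.7 CPM, a log2 ratio of 1.04 at levels far below those of the members.

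**Figure D4:**
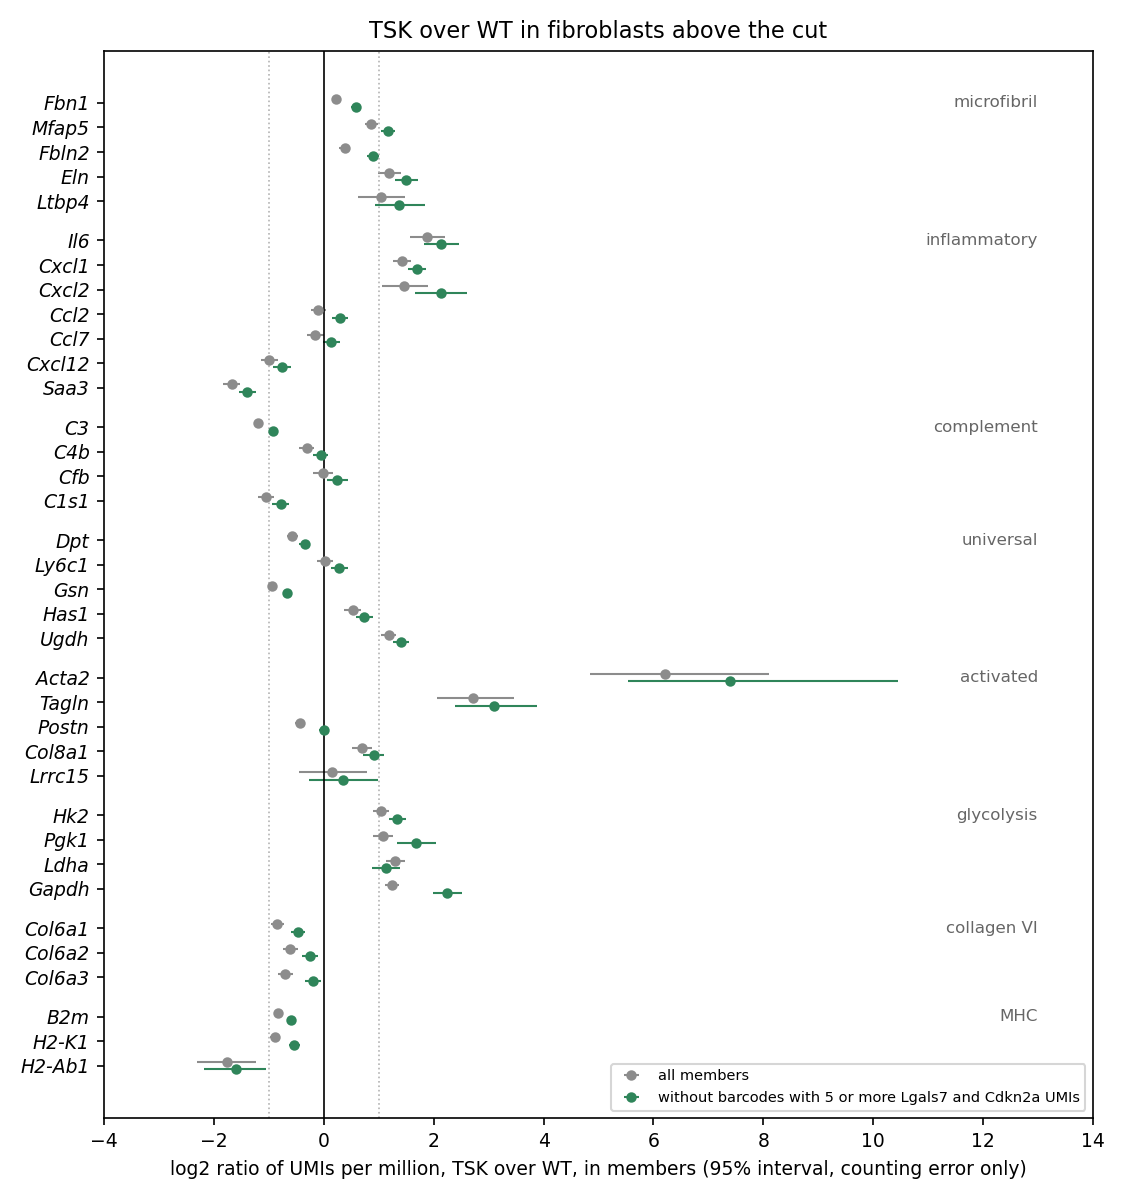
Log2 ratios of CPM, TSK over WT, with exact 95% intervals for counting error, over all members (grey) and in the cleaned set (green), for genes grouped by function; dotted lines mark 2-fold. In both sets Eln, Il6, Cxcl1, Acta2, Tagln and Gapdh lie right of the 2-fold line and Saa3 and H2-Ab1 left of it, while Postn and Ccl2 lie near 0.

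Inflammatory genes split between the libraries. Of 23 measured over all members, 5 were higher in TSK and 5 lower (median -0.11), and of 21 in the cleaned set 5 were higher and 3 lower (0.13). Il6 (chr5:30013114-30019981, plus strand), a cytokine of the acute response, had 67.9 CPM in the WT members and 250 CPM in the TSK members, or 1.88 (1.58 to 2.20) on the log2 scale. Without the Lgals7 and Cdkn2a barcodes it had 86.6 and 381 CPM, or 2.14 (1.82 to 2.46) on the log2 scale, and no single TSK cell held more than 5.91% of its UMIs. Thinned to 3000 UMIs, 13.6% of WT and 34.7% of TSK members had an Il6 UMI (40.3% and 54.5% unthinned), against 0.452% and 0.649% of T cells.

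Cxcl1 (chr5:90891241-90893115, plus strand) had 258 CPM in WT and 693 CPM in TSK, or 1.42 (1.26 to 1.59) on the log2 scale, and 331 and 1071 CPM in the cleaned set, 1.69 (1.53 to 1.86). With the cut at 1 UMI the ratio of Cxcl1 was 0.80 and no longer past 2-fold. In T cells Cxcl1 had 9.50 and 35.5 CPM, a log2 ratio of 1.90, again at levels far below those of the members. Cxcl2 (chr5:90903871-90905938, plus strand), another neutrophil chemokine, had 40.2 and 176 CPM in the cleaned set, or 2.13 (1.67 to 2.61) on the log2 scale. T cells had 24.2 and 170 CPM of Cxcl2, so in TSK the level in the cleaned members lay close to that in T cells. Cxcl5 (chr5:90759360-90761624, plus strand) had 1 UMI in the WT members and 81 UMIs in 14 of the 156 TSK members. Its ratio had an interval of 3.23 to 11.1 on the log2 scale, and 1 cell held 26.3% of its UMIs in the cleaned set. The ratio of Cxcl5 fell to 1.60 with the cut at 1 UMI, on 15 UMIs in WT and 107 in TSK, so its size depended on the cut.

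Other inflammatory genes did not share this direction. Ccl2, a monocyte chemokine, had 605 and 742 CPM in the cleaned set, or 0.29 (0.15 to 0.44) on the log2 scale that lay at the median gene. Cxcl12 had 644 and 378 CPM, or -0.77 (-0.93 to -0.61) on the log2 scale, and Saa3, an acute phase protein, had 921 and 351 CPM, or -1.39 (-1.55 to -1.24) on the log2 scale. Cxcl12 and Saa3 were lower in TSK members while in T cells they had log2 ratios of 0.92 and 2.0. Without cells with markers of other types the ratio of Saa3 was -0.95. Saa3 was found in 16 WT and 26 TSK members of the cleaned set, and in each library 1 cell held about as much of its UMIs, 31.9% in WT and 29.8% in TSK.

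The promoters of Il6, Cxcl1 and Cxcl2 are shown, from 250 bases before to 50 bases after the transcript start (RefSeq, GRCm38.p6, plus strand, 5′ to 3′). These genes lie on the same chromosome and were higher in the TSK library, as was Cxcl5, whose promoter is not shown. They were picked, so their matches are no test against the share of all promoters. Capitals mark each match to the NF-kB motif on either strand, in which bases 4 and 5 may be any base. No 2 matches overlapped, and 535 of 32851 promoters of this length (1.63%) held at least 1 match.
Il6, chr5:30012864-30013163: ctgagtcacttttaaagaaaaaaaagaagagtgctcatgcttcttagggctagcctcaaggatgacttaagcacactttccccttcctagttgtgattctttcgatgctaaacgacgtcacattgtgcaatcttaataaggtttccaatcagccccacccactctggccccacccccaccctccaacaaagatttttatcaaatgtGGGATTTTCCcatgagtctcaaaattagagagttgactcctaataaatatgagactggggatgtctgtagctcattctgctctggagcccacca
Cxcl1, chr5:90890995-90891294: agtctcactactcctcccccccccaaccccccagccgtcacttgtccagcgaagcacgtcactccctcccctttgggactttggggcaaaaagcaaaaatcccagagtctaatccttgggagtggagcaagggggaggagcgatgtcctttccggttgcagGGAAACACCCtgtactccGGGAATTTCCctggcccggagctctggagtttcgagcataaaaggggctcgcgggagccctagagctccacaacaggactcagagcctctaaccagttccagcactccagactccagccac
Cxcl2, chr5:90903649-90903948: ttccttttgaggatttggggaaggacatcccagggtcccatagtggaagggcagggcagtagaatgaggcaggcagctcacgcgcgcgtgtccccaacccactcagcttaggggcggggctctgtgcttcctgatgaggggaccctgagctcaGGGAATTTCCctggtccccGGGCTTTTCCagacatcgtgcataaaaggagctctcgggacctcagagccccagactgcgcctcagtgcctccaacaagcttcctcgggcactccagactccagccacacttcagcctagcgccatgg
Il6 held 1 match, at base 207 of the window, and Cxcl1 and Cxcl2 held 2 matches each, at bases 162 and 180 and at bases 154 and 173. The first match of Cxcl1 is a match on the minus strand. A match describes the letters of the window and not whether the factor bound there.

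Complement genes, high in the members of both libraries, had 1 higher and 3 lower of 11 in TSK over all members (median -0.31), and 1 of 11 each way in the cleaned set (-0.06). C3 had 3256 CPM in the WT members and 1409 CPM in the TSK members, or -1.21 (-1.27 to -1.14) on the log2 scale. With the Lgals7 and Cdkn2a barcodes left out it was -0.93 (-0.99 to -0.86), with per-cell medians of 31.6 UMIs per 10000 in WT and 15.2 in TSK and quartiles from 11.5 to 57.0 and from 7.60 to 29.8. Past 2-fold over all members, C3 was short of it also with at most 10000 UMIs and genes (-0.47), without cells with markers of other types (-0.90), with equal weight for each cell (-0.89) and after thinning (-0.96). In T cells C3 had 148 and 96.3 CPM, a log2 ratio of -0.62. C1s1, the classical pathway protease, had 762 and 442 CPM in the cleaned set, or -0.79 (-0.94 to -0.64) on the log2 scale. Cfb and C4b were near equal, with log2 ratios of 0.25 (0.06 to 0.44) and -0.06 (-0.20 to 0.08).

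Antigen presentation genes were lower in the TSK members, 4 of 7 past 2-fold and 0 higher in both sets (medians -1.52 and -1.20). The 4 were Cd74, H2-Aa, H2-Ab1 and H2-Eb1, which serve MHC class II. H2-Ab1 had 65.3 CPM in the WT members and 19.3 CPM in the TSK members, or -1.76 (-2.31 to -1.23) on the log2 scale, and -1.60 (-2.17 to -1.05) in the cleaned set. Cd74 had 96.2 and 27.6 CPM in the cleaned set, or -1.80 (-2.38 to -1.26) on the log2 scale, and in TSK 1 cell held 47.4% of its UMIs. In T cells these 4 genes stood at 70.3 to 189 CPM in WT and 77.8 to 266 CPM in TSK. Each lay above the level of the members, most narrowly for H2-Ab1 in WT, with 86.6 CPM in T cells and 85.7 CPM in the cleaned members. The T cells were not cleared of barcodes with markers of other cell types. Whether the members express class II genes was not tested. B2m and H2-K1 of MHC class I were lower too, with log2 ratios of -0.60 (-0.67 to -0.52) and -0.54 (-0.64 to -0.44) in the cleaned set. T cells had -0.68 and -0.56 for them.

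Activated and contractile genes had 4 higher and 2 lower of 21 in TSK, and 5 higher and 1 lower of 19 in the cleaned set (median 0.31, at that of all genes). Acta2 (chr19:34241090-34255590, minus strand), smooth muscle actin, had 2 UMIs in 2 of 58 WT members of the cleaned set and 406 UMIs in 23 of 132 TSK members. That corresponds to 1.75 and 294 CPM and to a log2 ratio of 7.40 (5.53 to 10.4), with 1 TSK cell holding 35.2% of the UMIs. Tagln had 15.7 and 134 CPM, or 3.09 (2.39 to 3.88) on the log2 scale, and was found in 10.3% of WT and 18.2% of TSK members. With the cut at 1 UMI the ratios were 0.70 for Acta2, no longer past 2-fold, and 1.07 for Tagln. The pericyte and smooth muscle markers of the members were higher in TSK too, at 25.7 and 57.8 CPM over all and 30.6 and 87.7 CPM in the cleaned set, and their part was not tested. Both genes were found in few members, and below the cut Acta2 stood at 1039 CPM in WT and 774 CPM in TSK in the cleaned set. Postn had a log2 ratio of -0.01 (-0.10 to 0.09), which differed by -0.32 from the median gene. Lrrc15 had 0.35 (-0.27 to 0.99), and over all members 0.15, and its ratio moved both ways under other settings. It was 1.32 with equal weight for each cell, 1.30 after thinning, 2.15 with the thinned cut and 1.16 with at most 10000 UMIs and genes. It turned to -0.47 with the cut at 1 UMI and to -0.10 with scaling by the median gene. In the WT members 1 cell held 59.5% of its UMIs.

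Among the genes the study named for TSK tissue, a list chosen by the study in part on these samples and so not independent of them, 5 of 10 measured were past 2-fold higher in the cleaned set and 0 lower (median 1.04), against 4 and 1 over all members (0.78). The 5 were Mfap5, Ildr2, Acta2, Tagln and Pf4. The same list had a median of 1.05 in T cells, over 4 genes. In Lgals7 and Cdkn2a barcodes outside the gate it was 1.83, over 8 genes, so the shift was not confined to the members. Pf4, a platelet chemokine, had 61 UMIs in the TSK members, of which 1 cell held 88.5%. Ildr2, a membrane protein of the immunoglobulin family, had 16.6 and 50.8 CPM, or 1.61 (0.86 to 2.43) on the log2 scale. Col8a1, a short-chain collagen, had 279 and 522 CPM (0.90, 0.71 to 1.10) and Fstl1, a secreted glycoprotein, 2036 and 2980 CPM (0.55, 0.48 to 0.62). Ccn3, a matricellular protein, had 408 and 207 CPM (-0.98, -1.20 to -0.77), and without the top cell of each library its log2 ratio was 0.56, so 1 cell decided its direction. Actg2 had 1 and 48 UMIs and Retnla 2 and 3 over all members, and both were below 50 UMIs.

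Glycolysis and hypoxia genes were higher in TSK, 9 of 18 past 2-fold and 0 lower over all members (median 0.99) and 11 of 16 in the cleaned set (1.34). Gapdh had 123 CPM in WT and 586 CPM in TSK in the cleaned set, or 2.25 (1.99 to 2.52) on the log2 scale. Pgk1 had 71.7 and 230 CPM (1.68, 1.33 to 2.05) and Hk2, the first kinase of the pathway, 360 and 912 CPM (1.34, 1.18 to 1.5). The same list had a median of 1.16 in T cells and of -0.21 in Lgals7 and Cdkn2a barcodes outside the gate. Cell cycle genes had 13 of 15 higher over all members (median 2.34) and 3 of the 5 measured in the cleaned set (1.38). The cell cycle list had a median of 1.26 in T cells and of 1.14 in Lgals7 and Cdkn2a barcodes outside the gate. Mki67, a marker of dividing cells, was found in 2 of 58 WT and 9 of 132 TSK members of the cleaned set.

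Of genes that serve hyaluronan synthesis, picked after their values were seen, Ugdh was past 2-fold and Has1 was not. Ugdh, which makes the precursor of hyaluronan, had 441 and 1171 CPM in the cleaned set, or 1.41 (1.27 to 1.56) on the log2 scale, and Has1 451 and 753 CPM, 0.74 (0.58 to 0.89). Of the 28 universal and adventitial genes, 6 were higher and 0 lower (median 0.55), and over all members 5 and 0 (0.26). Gsn stood apart with 3836 and 2417 CPM, or -0.67 (-0.73 to -0.60) on the log2 scale. Timp1, an inhibitor of metalloproteinases, had 424 and 1777 CPM, or 2.07 (1.93 to 2.21) on the log2 scale, with 1 TSK cell holding 24.9% of its UMIs and a ratio of 1.88 without the top cell of each library.

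**Figure D5:**
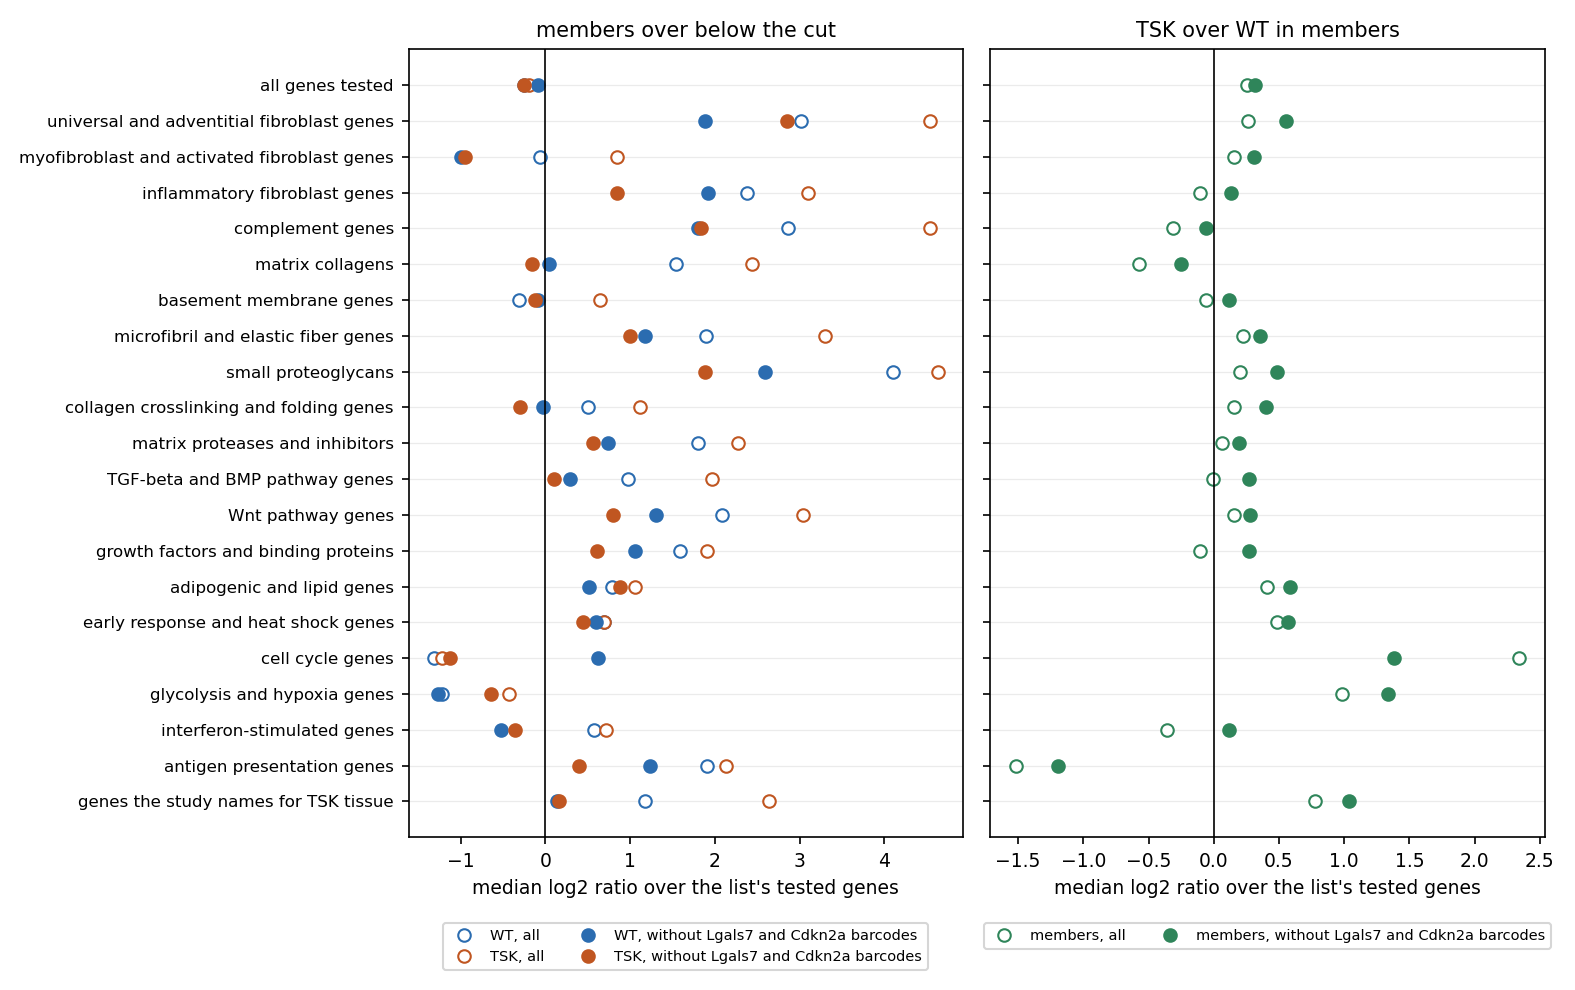
Median log2 ratio over the genes measured of each list, members over fibroblasts below the cut in each library (left; WT blue, TSK orange) and TSK over WT in the members (right), over all cells (open) and in the cleaned set (filled). On the left the activated fibroblast genes go from near or above 0 to about -1 in the cleaned set while the universal and complement genes stay above 1; on the right cell cycle and glycolysis genes lie highest and antigen presentation genes lowest.

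The remaining lists are given by their counts between the genotypes, beside 11.6% of all genes higher and 3.21% lower, and 12% and 2.91% in the cleaned set. Matrix collagens had 0 higher and 2 lower of 13 in TSK, and 0 and 1 in the cleaned set (medians -0.58 and -0.25), with collagen VI chains among the lower values at log2 ratios of -0.47 for Col6a1 (-0.60 to -0.34), -0.25 for Col6a2 and -0.20 for Col6a3. Basement membrane genes had 0 higher and 1 lower of 13 (median -0.06), and 0 of 12 either way in the cleaned set (0.12). Small proteoglycans had 0 of 5 past 2-fold in both sets, and collagen crosslinking and folding genes 0 higher and 2 lower of 20 and 0 of 19 either way. Matrix proteases and inhibitors had 0 higher and 2 lower of 25, and 3 and 1 of 24. TGF-beta and BMP genes had 1 of 18 higher, and 2 of 18 in the cleaned set, which were Tgfb1 and Eng. Wnt genes had 2 of 10 higher, and 1 in the cleaned set, Wnt2. Growth factors had 0 of 20 past 2-fold, and 2 of 18 higher. Adipogenic and lipid genes had 3 of 11 higher, and 2 of 10. Early response and heat shock genes had 4 of 20 higher in both sets. Interferon-stimulated genes had 4 higher and 3 lower of 14, and 3 higher and 0 lower of 13, which were Ifit1, Ifit3 and Irf7.

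By the rule for naming genes, the 12 highest in TSK over all members were Galnt9, Ccnb1, Acta2, Hist1h1b, Cxcl5, Plk1, Ube2c, Hist1h2ap, Sorcs1, Tinagl1, Pf4 and Ube2cbp. Of these Ccnb1, Hist1h1b, Plk1, Ube2c and Hist1h2ap serve the cell cycle, and the 103 UMIs of Galnt9 lay in 1 cell. In the cleaned set Ass1, Ctla2a, Dmkn, Pgf, Spp1, Syn1 and Uchl1 took the places of Galnt9, Ccnb1, Hist1h1b, Plk1, Sorcs1, Tinagl1 and Ube2cbp. Dmkn, a secreted protein known from the epidermis, was spread over the most cells of these, with 23 UMIs in 6 WT members and 283 UMIs in 52 TSK members, or 3.35 (2.74 to 4.03) on the log2 scale.

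Among the 12 lowest in TSK were Grm7, Dnah2, Krt8, Gm36266, Col6a5, Reg1, Unc5c, Gm29585, Brinp3, Mbp and Col11a1, and the cleaned set brought in, among others, Adgrb3, Ank3, Gm48099, Prr16 and Xkr4, while Grm7, Dnah2, Krt8, Gm29585 and Mbp were no longer in it. Col6a5, a collagen VI chain, had 110 UMIs in 20 of 58 WT members and 4 UMIs in 3 of 132 TSK members of the cleaned set, or -5.05 (-6.95 to -3.65) on the log2 scale, with 1 WT cell holding 44.6% of the UMIs. Gm48099 had 394 CPM in WT and 68.2 CPM in TSK there, or -2.53 (-2.87 to -2.21) on the log2 scale. It was lower in TSK in T cells as well, with a log2 ratio of -1.54, and so was not particular to the members.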

How the data were processed

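Tumors were pooled by genotype (4 WT and 4 TSK mice) before a single 10x 3′ library of each was made. The authors deposited UMI counts per gene and barcode, made with Cell Ranger (7.1.1 in the submitters' processing notes, 7.1.0 in a file header) on mm10. Their counts were used as deposited.

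Cells had at least 200 genes, at least 500 UMIs and at most 10% mitochondrial UMIs, and barcodes present in both libraries were left out. UMIs were summed over the cells of a group and given as CPM. Members were set against the fibroblasts below the cut at genes with at least 50 UMIs in all, 10 of them in each library, and called past 2-fold in both, and TSK against WT members at genes with at least 50 UMIs. For ratios, 0.5 replaced a sum of 0. Genes named were the 15 highest and 15 lowest over the fibroblasts below the cut, the 12 highest and 12 lowest in TSK over WT, and listed genes. Ca9 was the 1 listed gene without a match. Members and lists were chosen with earlier results of these data known. Promoters came from RefSeq (GRCm38.p6) and gene positions from the GRCm38 annotation. Alternatives concerned depth limits, mitochondrial share, the cut, shared barcodes, other cell types, weighting, scaling, the UMI minimum and thinning. Leaving out Lgals7 and Cdkn2a barcodes (at least 5 UMIs) was chosen after seeing the data. Ratios were tested on simulated data. Scripts ran in Python 3.11.15 with scipy 1.17.1, numpy 2.4.6, matplotlib 3.10.9 and pandas 2.3.3. Some genes that the rule names are not reported here.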

Additional observations from a re-analysis of the deposited data

Results flagged for a closer look

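Fabp4 and Mmp11 were in opposite positions relative to the fibroblasts below the cut in the 2 libraries, and the difference was not tested, since each genotype had 1 library. Fabp4, a fatty acid binding protein, had 11.2 CPM in the WT members and 31.7 CPM below the cut, and 40.3 and 19.4 CPM in TSK, so that its log2 ratio was 2.556 higher in TSK than in WT. Mmp11, a metalloproteinase known from activated stroma, had 13.8 and 104 CPM in WT and 23.6 and 9.56 CPM in TSK, a gap of 4.221 between the log2 ratios. In the cleaned set both genes were lower in the WT members than below the cut, with Fabp4 at 14 and 116 CPM and Mmp11 at 11.4 and 34.2 CPM. In TSK Fabp4 was 63.1 and 83.3 CPM there and Mmp11 21.8 and 12.1 CPM, so by these values the opposite positions remained for Mmp11 and not for Fabp4. The cleaned fibroblasts below the cut held 146350 UMIs in WT and 576562 in TSK over all genes. The Mmp11 levels below the cut thus rest on few UMIs, and its direction there is uncertain.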

How the results depend on the processing

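No paired analysis was possible because each genotype had 1 library and the results come from no test. Where a value moved, the cause was not tested. Values are given in the order of the log2 ratio of the share above the cut (main -0.888), genes higher (809) and lower (500) than below the cut, genes higher (862) and lower (239) in TSK, and the log2 ratio of Fbn1 (0.226), naming those that moved. Upper limits of 10000 UMIs and 10000 genes turned the share to 0.296, with 112 higher, 12 lower, 405 higher in TSK and Fbn1 at 0.457. Leaving out cells with markers of other types turned the share to 0.057, with 229 higher, 53 lower, 527 higher in TSK and Fbn1 at 0.715. A cut at 1 UMI gave 43 lower, 1782 higher and 513 lower in TSK, and turned Fbn1 to -0.435. A cut at 3 UMIs gave 569 higher in TSK and Fbn1 at 0.408. A cut after thinning gave 943 lower and Fbn1 at 0.369. Keeping shared barcodes gave 898 lower. Equal weight for each cell gave Fbn1 at 0.543. Median scaling gave 251 lower, 424 higher and 453 lower in TSK, and turned Fbn1 to -0.031. A minimum of 20 UMIs gave 1346 higher and 440 lower in TSK. Thinning each cell to 3000 UMIs gave 309 higher, 200 lower, 253 higher and 84 lower in TSK, and Fbn1 at 0.625. Leaving out the Lgals7 and Cdkn2a barcodes, chosen after seeing the data, gave the share at -0.131, 267 higher and 267 lower, and Fbn1 at 0.581. A limit of 20% mitochondrial UMIs moved none of these 6 values.

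List medians over the fibroblasts below the cut that were past 2-fold in the main values changed sign as follows. With the upper limits they were Wnt genes (-1.616), glycolysis genes (0.536) and listed TSK tissue genes (-0.02) in WT, and Saa3 turned to 4.722 for TSK over WT, a value set by 0 UMIs in WT. With the thinned cut they were antigen presentation genes (-0.05) and listed TSK tissue genes (-1.858) in WT. Without other cell types they were matrix collagens (-0.352), crosslinking genes (-0.39) and Wnt genes (-0.158) in TSK and glycolysis genes (0.508) in WT. Without the Lgals7 and Cdkn2a barcodes they were matrix collagens (-0.155) and crosslinking genes (-0.3) in TSK and cell cycle genes (0.619) in WT. Medians under 2-fold in the main values changed sign as well, 4 with the upper limits, 2 with the thinned cut, 3 without other cell types, 5 without the Lgals7 and Cdkn2a barcodes, 2 with the cut at 1 UMI, and 1 each with shared barcodes kept, with median scaling and with thinned cells. Among them, activated fibroblast genes in TSK turned below 0 with the upper limits, without other cell types and without the Lgals7 and Cdkn2a barcodes. The WT fibroblasts below the cut, 24 in number and 13 in the cleaned set, limit each ratio over them.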
